A study of Mus musculus with 2 samples.

Results

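A set of 10 genes whose products form the elastic fibre and its microfibril scaffold was examined in cultured fibro-adipogenic progenitors (FAPs) of the mouse. FAPs are stromal cells between the fibres of skeletal muscle, and they can turn into adipocytes or into fibroblasts that make matrix. The 10 genes are Eln, Fbn1, Fbn2, Mfap2, Mfap4, Mfap5, Fbln1, Fbln2, Fbln5 and Efemp2. They were taken by gene symbol, and all 10 were found among the 44291 genes of the expression tables. The set was chosen with earlier results of these data known. Wild-type (WT) primary FAPs, sorted from the hind limb muscle of mice according to the study's methods, were given platelet-rich plasma (PRP) or vehicle and were then kept in adipogenic induction medium. In both groups this medium was DMEM with 20% FBS to which insulin (10 μg/ml), dexamethasone (0.25 μM) and IBMX (0.5 mM) had been added. The PRP group and the control group had 1 RNA-seq library each. The study's text names the treatment before sequencing as exosomes from PRP of young human donors, whereas the sample labels name PRP. The names PRP and control are therefore kept for the libraries. How many animals or cultures went into each library is not given in the sources used here.

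An elastic fibre has a core of cross-linked elastin laid down on a sheath of microfibrils. Fibrillin molecules line up head to tail into the microfibril, microfibril-associated glycoproteins bind along it, and fibulins bring tropoelastin and the cross-linking enzyme lysyl oxidase to it. Microfibrils also hold latent TGF-β complexes in the matrix, and fibroblasts of many tissues make them with little or no elastin.

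Reads assigned to genes numbered 40120843 with PRP and 34139741 in the control. With no replicate in either group, a difference lies between 2 libraries, carries no p-value, and counting error is the only error that could be estimated. The spread between animals, cultures and library preparations was not measured. All 8 FAP markers examined, such as Pdgfra, were present in both libraries, at 4.76 to 118.6 FPKM with PRP and 6.10 to 218.7 FPKM in the control. All 8 were lower with PRP, and their summed level was 335.9 against 569.9 FPKM. The collagen gene Col1a1 supplied 118.6 and 218.7 FPKM of these sums. The ratios ran from 0.374 for Dpt to 0.902 for Ly6a, with Pdgfra at 0.710. Smooth muscle cells also make elastic fibres. Of the 7 genes examined as smooth muscle markers, 6 were higher with PRP by more than counting error. The summed level of the 7 was 1143 against 665.5 FPKM. These values do not show which cells made the RNA. The 5 endothelial markers summed to 9.24 and 5.23 FPKM, almost all of it Kdr and Tek, with Pecam1 at 0.188 and 0.0470 FPKM. The 4 myogenic markers summed to 3.56 and 3.75 FPKM, nearly all of it Ckm, with Pax7 and Myog listed at 0 in both libraries. The 5 platelet markers summed to 1.55 and 1.40 FPKM, with Ppbp and Gp9 listed at 0. They are mouse genes and reads were aligned to the mouse genome, so they do not measure RNA of the human platelets. The sums were 10.7 and 10.4 FPKM for the 6 adipocyte markers and 10.1 and 10.4 FPKM for the 5 macrophage markers. Among the latter Cd68 was higher with PRP (4.56 and 2.31 FPKM) and Lyz2 lower (4.91 and 7.57 FPKM), both by more than counting error. The 5 pericyte markers summed to 69.9 and 90.2 FPKM, nearly all of it Pdgfrb with 68.5 and 88.7 FPKM. The 4 tenocyte markers summed to 3.31 and 4.76 FPKM. The part of these markers in the values below was not tested. In bulk RNA, fewer cells that express a gene and less of its RNA per cell cannot be told apart.

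Levels were compared between genes as FPKM, a unit defined as fragments per kilobase of exon scaled to library size. In these values the mates of a pair appear to have been counted apart. Fbln2 led in both libraries, with 338.2 FPKM with PRP and 402.3 FPKM in the control, which made it the 137th and the 104th most abundant of all genes. Fbn1 followed with 67.4 and 118.1 FPKM, at ranks 808 and 435. These 2 genes made up 91.9% of the summed FPKM of the members with PRP and 92.6% in the control. Efemp2, Mfap5 and Fbln5 came next in that order in both libraries. Down to Fbln5, the counting intervals of neighbours in the order did not overlap in either library.

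The other 5 members were near or under 1 FPKM. In the control their order was Fbn2, Mfap2, Fbln1, Eln and Mfap4, and the counting interval of each overlapped that of the next. With PRP, Mfap2 stood above the other 4 with no overlap, and the order below it was Fbln1, Fbn2, Eln and Mfap4, each overlapping the next. Elastin itself was therefore among the least abundant members, and Fbn1 exceeded it 208.6 times with PRP and 171.9 times in the control on the FPKM scale.

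**Figure D1:**
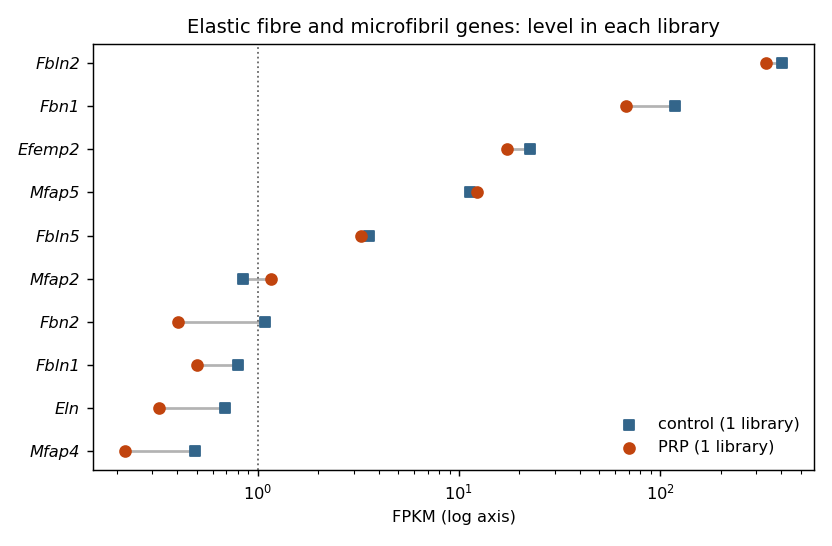
Level of each of the 10 members in FPKM (log axis) in the control library (squares) and the PRP library (circles), with 1 library per group and a dotted line at the filter of 1 FPKM. Fbln2 and Fbn1 stand highest in both libraries, and the widest gaps between the libraries belong to Fbn2, Mfap4, Eln and Fbn1.

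The fibrillins, which form the backbone of the microfibril, were both lower in the PRP library. Fbn1 (ENSMUSG00000027204, mm10 chromosome 2, 125300594 to 125507993, minus strand), the main fibrillin of adult tissues, had 67.4 FPKM with PRP and 118.1 FPKM in the control. The ratio was 0.571 with a 95% counting interval of 0.559 to 0.582, from 32801 and 48917 reads. On the log2(FPKM + 1) scale the difference was -0.80, and 2.05% of the 13401 genes that averaged 1 FPKM or more lay lower. Of the exon length of Fbn1, 20.1% overlaps Gm9913 on the opposite strand, whose ratio was 0.563. The study's methods name a kit for stranded libraries. Whether strand was used in counting is not stated, so reads of the overlap cannot be assigned to either gene.

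The promoter windows of Fbn1 and Fbln2 are shown because these 2 genes carry most of the members' signal and differ in how far they were lower with PRP. Both come from RefSeq (GRCm38.p6) and are written 5′ to 3′ on the strand of the gene, with the 250 bases before the RefSeq start site in lower case and the first 50 transcribed bases in capitals. Both start sites lie inside the longer GENCODE spans of the genes. The Fbn1 window is chr2:125506389-125506688 (minus strand) and the Fbln2 window is chr6:91212514-91212813 (plus strand).
Fbn1: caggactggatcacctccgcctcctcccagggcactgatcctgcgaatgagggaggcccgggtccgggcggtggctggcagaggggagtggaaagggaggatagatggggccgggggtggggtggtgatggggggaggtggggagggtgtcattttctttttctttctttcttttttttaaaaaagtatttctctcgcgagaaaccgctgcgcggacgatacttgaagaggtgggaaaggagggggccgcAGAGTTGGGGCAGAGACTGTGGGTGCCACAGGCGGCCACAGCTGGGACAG
Fbln2: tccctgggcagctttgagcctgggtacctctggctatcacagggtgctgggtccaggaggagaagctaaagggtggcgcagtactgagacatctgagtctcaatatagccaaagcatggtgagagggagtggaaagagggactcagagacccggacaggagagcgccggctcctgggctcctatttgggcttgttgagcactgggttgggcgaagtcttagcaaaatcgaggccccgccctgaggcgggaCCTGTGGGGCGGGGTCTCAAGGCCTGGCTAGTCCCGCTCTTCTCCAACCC
Each window has a GC content of 60.3%, beside a median of 60.7% over the 11025 windows of genes averaging 1 FPKM or more. Neither holds the SMAD element CAGACA, which occurs on either strand in 15.6% of those windows. Neither holds the AP-1 site TGANTCA, with a share of 5.02%, or the TATA box letters TATAAA, with a share of 7.11%. Windows of 6 of the 10 members were searched, and CAGACA occurs in 1 window of Mfap2, 1 of Fbln5 and 2 overlapping windows of Fbln1. Fbn2 was left out of this search, and no window was available for Eln, Mfap4 and Mfap5. The absence or presence of these letters is a description of the window and not of a bound factor.

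Fbn2 (ENSMUSG00000024598, chromosome 18, 58008623 to 58210487, minus strand) encodes a fibrillin made mainly in development. Its level was 0.404 FPKM with PRP and 1.09 FPKM in the control, from 214 and 494 reads. The ratio of 0.369 (interval 0.291 to 0.464) was the lowest of the 10 members. The mean level of Fbn2 lay under the filter of 1 FPKM, and a pseudocount of 1 shrinks such a difference, to -0.58 on the log2 scale. The FPKM of Fbn1 was 167.0 times that of Fbn2 with PRP and 107.9 times in the control.

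The microfibril-associated proteins did not share a direction. Mfap5 (ENSMUSG00000030116, chromosome 6, 122505845 to 122529290, plus strand) encodes MAGP-2, which binds fibrillin. It had 12.3 FPKM with PRP and 11.3 FPKM in the control, a ratio of 1.09 with an interval of 0.982 to 1.20 that includes no change. Mfap2 (ENSMUSG00000060572, chromosome 4, 141010418 to 141015984, plus strand) encodes its relative MAGP-1. Its level was 1.17 FPKM with PRP and 0.847 FPKM in the control, from 57 and 35 reads. The ratio of 1.39 (0.738 to 2.67) was the highest of the members, but a difference was not detectable at this depth. Mfap4 (ENSMUSG00000042436, chromosome 11, 61485431 to 61488900, plus strand), a fibrinogen-domain protein that binds elastin and fibrillin, had 0.220 and 0.488 FPKM. With 17 and 32 reads its ratio of 0.452 had an interval of 0.172 to 1.10. The level of Mfap4 was therefore lower with PRP without exceeding counting error.

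The core protein of the fibre was scarce. Eln (ENSMUSG00000029675, chromosome 5, 134702593 to 134747323, minus strand), which encodes tropoelastin, had 0.323 FPKM with PRP and 0.687 FPKM in the control. The ratio was 0.470 (0.329 to 0.666), from 105 and 190 reads. Like Fbn2, Eln was lower by more than counting error at a level under the filter, and its log2 difference with a pseudocount of 1 was -0.35.

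The 4 fibulin genes were lower with PRP to different degrees. Efemp2 (ENSMUSG00000024909, chromosome 19, 5473954 to 5482517, plus strand) encodes fibulin-4, which elastic fibre assembly and lysyl oxidase activation require. It had 17.4 FPKM with PRP and 22.7 FPKM in the control, a ratio of 0.766 (0.711 to 0.826). Fbln2 (ENSMUSG00000064080, chromosome 6, 91212455 to 91272540, plus strand) encodes fibulin-2, which binds fibrillin, fibronectin and basement membrane proteins. Its 338.2 and 402.3 FPKM rested on 86438 and 87483 reads, and its ratio was 0.841 (0.830 to 0.852). The deep counts give Fbln2 the narrowest interval of the members. Its ratio lies closer to no change than that of Fbn1, with intervals far apart. In unlogged FPKM its difference was the larger, with -64.1 against -50.7 for Fbn1. The FPKM of Fbln2 was thus 5.02 times that of Fbn1 with PRP and 3.40 times in the control.

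Fbln1 (ENSMUSG00000006369, chromosome 15, 85205949 to 85286535, plus strand) encodes fibulin-1, found in the core of elastic fibres. It had 0.502 FPKM with PRP and 0.798 FPKM in the control, a ratio of 0.629 (0.416 to 0.945) from 88 and 119 reads. Fbln5 (ENSMUSG00000021186, chromosome 12, 101746565 to 101819055, minus strand) encodes fibulin-5, which tethers tropoelastin to microfibrils and to integrins. Its 3.25 and 3.59 FPKM gave a ratio of 0.907 (0.793 to 1.04). Of the 4 fibulins, Fbln5 alone had an interval that includes no change.

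**Figure D2:**
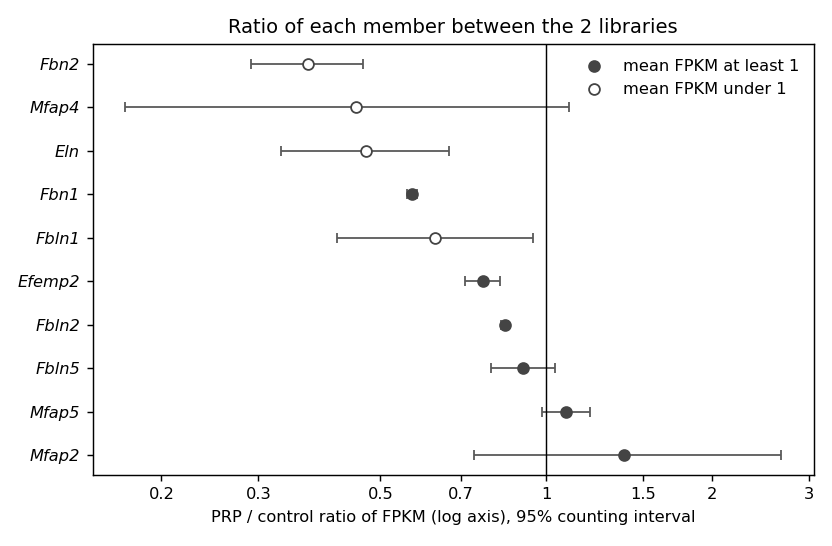
Ratio of FPKM between the PRP and the control library for each member (log axis), with bars for the 95% counting interval and a line at no change. Filled points mark members averaging 1 FPKM or more and open points those under it. Of the 10 members 6 lie below 1 with their whole interval, and none lies above it.

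Together, 8 of the 10 members were lower and 2 were higher in the PRP library. The interval of the ratio lay wholly below 1 for 6 members (Fbn2, Eln, Fbn1, Fbln1, Efemp2 and Fbln2), included 1 for 4, and lay above 1 for none. Among 19125 genes with whole reads that averaged 0.1 FPKM or more, the interval lay below 1 for 19.0% and above 1 for 19.9%. For the 4 members with a mean FPKM under 1, all of them lower, the interval lay below 1 for Fbn2, Eln and Fbln1. Among 6756 genes with a mean FPKM from 0.1 to 1 it did so for 6.11%. A ratio under 0.5 with an interval below 1 was seen for Fbn2 and Eln, and for 3.21% of those genes. These shares were taken over genes chosen by FPKM and were not matched on read number. At the same FPKM a longer gene has more reads and a narrower interval, so the shares do not measure an excess among the members.

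Past the filter of 1 FPKM, 6 members remained, namely Fbn1, Mfap2, Mfap5, Fbln2, Fbln5 and Efemp2. None of them differed at least 2-fold on the log2(FPKM + 1) scale, a size that 2.83% of all 13401 genes reached, 0.828% in the lower direction. At 1.5-fold Fbn1 passed, as did 10.7% of all genes in either direction and 4.57% in the lower direction. The 6 members were 4 lower and 2 higher with a median log2 difference of -0.18. All genes had a median of 0.01, and 49.1% of them were lower. Mfap2, 1 of the 2 higher members, averaged 1.01 FPKM and reached 1 FPKM only in the PRP library, where it was higher. Fbn2 reached 1 FPKM only in the control and was left out. The split and the median therefore depend on the filter. The middle 95% of genes spanned -0.74 to 0.89, and of the 6 members only Fbn1 lay outside that range. Efemp2 had 11.5% of genes below it, Fbln2 19.3%, Fbln5 34.5%, Mfap5 63.8% and Mfap2 77.3%.

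**Figure D3:**
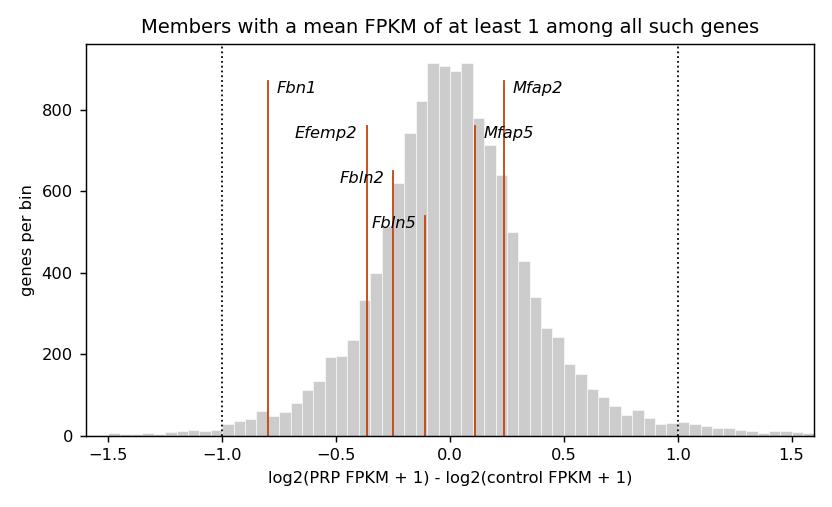
Histogram of the log2(FPKM + 1) difference, PRP minus control, for genes averaging 1 FPKM or more (grey bars, genes per bin of 0.05), with the 6 members that passed this filter as vertical lines whose height has no meaning and dotted lines at 2-fold. Fbn1 at -0.80 lies in the lower tail and the other 5 lie within the bulk of genes, and 87 genes fall outside the plotted range.

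The summed FPKM of the 10 members was 441.2 with PRP and 561.9 in the control, a ratio of 0.785. Fbln2 supplied 76.7% of the sum with PRP and 71.6% in the control, and Fbn1 supplied 15.3% and 21.0%. Without Fbln2 the sums were 103.0 and 159.7 FPKM, a ratio of 0.645. The mixture of microfibril transcripts therefore held a smaller share of fibrillin-1 and a larger share of fibulin-2 in the PRP library.

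The study followed the microRNAs let-7f-5p and miR-16-5p as cargo of the PRP exosomes, so the longest 3′UTR of each member in GENCODE M21 was searched for a match to their seeds. A microRNA pairs with a target mainly through its seed, bases 2 to 8 from its 5′ end. The mouse microRNAs of these names are given from RefSeq (GRCm38.p6) with the seed in capitals.
mmu-let-7f-5p: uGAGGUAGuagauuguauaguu
mmu-miR-16-5p: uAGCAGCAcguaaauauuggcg
The seed match is CTACCTC for let-7f-5p and TGCTGCT for miR-16-5p. Fbln5 alone among the 10 members holds either, with 1 match of each kind in a 3′UTR of 4177 bases, the longest of the members. They are shown with 8 bases on each side and with the seed match in capitals. The let-7f-5p stretch lies at chr12:101749181-101749203, and its match starts at base 1547 of the 3′UTR. The miR-16-5p stretch lies at chr12:101750329-101750351, and its match starts at base 399 (both mm10, minus strand).
Fbln5 let-7f-5p match: ctcctatcCTACCTCttggtgat
Fbln5 miR-16-5p match: tgctgcatTGCTGCTttgcaaaa
Of 10287 genes with a 3′UTR and an average of 1 FPKM or more, 9.85% hold the let-7f-5p match and 24.6% the miR-16-5p match. Their median 3′UTR length was 1154 bases, against 945.5 bases for the 10 members. The 3′UTRs of the other 9 members, from 404 bases for Mfap2 to 1635 bases for Fbn2, hold neither heptamer. The part of the microRNAs in these values was not tested. A missing match says only that these letters are not in this 3′UTR.

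Partner genes of the elastic fibre were described in 8 lists with 54 genes in all, of which 35 averaged 1 FPKM or more. Of these 35 genes, 25 were lower and 10 were higher with PRP, with a median log2 difference of -0.22. The interval of the ratio lay below 1 for 22 genes, above 1 for 6 and included it for 7. Over the 12369 genes with whole reads at that level it lay below 1 for 26.1% and above 1 for 26.1%. These genes too were not matched to the partner genes on read number. On the log2(FPKM + 1) scale none of the 35 genes differed at least 2-fold, as 2.83% of all genes did.

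The lysyl oxidases, copper enzymes that cross-link elastin and collagen, were described together with the copper transporter Atp7a. Of the 6 genes 5 were lower and the median log2 difference was -0.48. Lox, the most abundant, had 216.3 FPKM with PRP and 319.6 FPKM in the control (ratio 0.677, interval 0.665 to 0.689). Loxl3 came closest to 2-fold on that scale, with 17.5 and 35.5 FPKM (0.494, 0.464 to 0.525) and a log2 difference of -0.98. Loxl4 was higher, with 4.73 and 3.98 FPKM (1.19, 1.02 to 1.39). All 5 genes that process elastic fibre proteins during secretion were lower by more than counting error, with a median of -0.35. On the log2(FPKM + 1) scale they ranged from the procollagen proteinase gene Bmp1 (8.39 and 12.3 FPKM, 0.681, 0.636 to 0.730) to Fkbp10, a chaperone of tropoelastin and collagen (29.8 and 33.2 FPKM, 0.900, 0.841 to 0.963).

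Relatives of the fibulins and the EMILINs, glycoproteins at the border of elastin and microfibrils, had 4 genes past the filter, 3 lower and 1 higher, with a median of -0.41. Emilin1 had 27.9 FPKM with PRP and 53.7 FPKM in the control (0.519, 0.495 to 0.544). Efemp1, the gene of fibulin-3, had 40.0 and 58.8 FPKM (0.680, 0.637 to 0.726). Fbln7 had 4.85 and 4.33 FPKM, and its interval of 0.944 to 1.33 includes no change. Among the ADAMTS and ADAMTS-like proteins that associate with microfibrils, 4 genes passed the filter, 3 lower and 1 higher, with a median of -0.38. Adamts10, which binds fibrillin-1, had 2.56 and 5.01 FPKM (0.512, 0.453 to 0.578). Adamtsl3, named after its values were seen, had the lowest ratio of the 35 partner genes, with 1.07 and 2.38 FPKM (0.450, 0.370 to 0.545). Adamts6 had 2.53 and 2.13 FPKM (1.19, 1.02 to 1.39), and the most abundant of them, Adamtsl5, had 5.42 and 5.69 FPKM with an interval of 0.839 to 1.08.

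The latent TGF-β binding proteins, which dock the latent growth factor on microfibrils, had 3 genes past the filter with a median of 0.08. Ltbp3 had 8.46 FPKM with PRP and 13.0 FPKM in the control (0.652, 0.609 to 0.697), while Ltbp1 had 1.63 and 1.26 FPKM (1.30, 1.10 to 1.54). Of the proteoglycans, the abundant biglycan gene Bgn had 171.7 and 214.8 FPKM (0.799, 0.784 to 0.814), and the versican gene Vcan had 3.36 and 2.68 FPKM (1.25, 1.13 to 1.39). The median of the 3 proteoglycan genes was -0.13.

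Integrin subunits that recognise the RGD motif had 5 genes past the filter with a median of -0.01. Itgb1 had 244.0 and 252.6 FPKM (0.966, 0.946 to 0.986), Itgb5 had 42.5 and 61.1 FPKM (0.696, 0.663 to 0.730), and Itga5, part of the fibronectin receptor, had 27.7 and 24.4 FPKM (1.14, 1.07 to 1.20). Of the proteases that can degrade elastin 3 were lower and 2 higher, with a median of -0.15. Ctsk, the gene of the elastolytic cysteine protease cathepsin K, had 178.4 FPKM with PRP and 112.8 FPKM in the control. Its ratio of 1.58 (1.51 to 1.65) was the highest of the 35 partner genes. Mmp2, the gene of gelatinase A, had 79.6 and 117.4 FPKM (0.678, 0.654 to 0.703). Ctsl, which encodes cathepsin L, had 158.6 and 176.1 FPKM (0.900, 0.883 to 0.918).

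**Figure D4:**
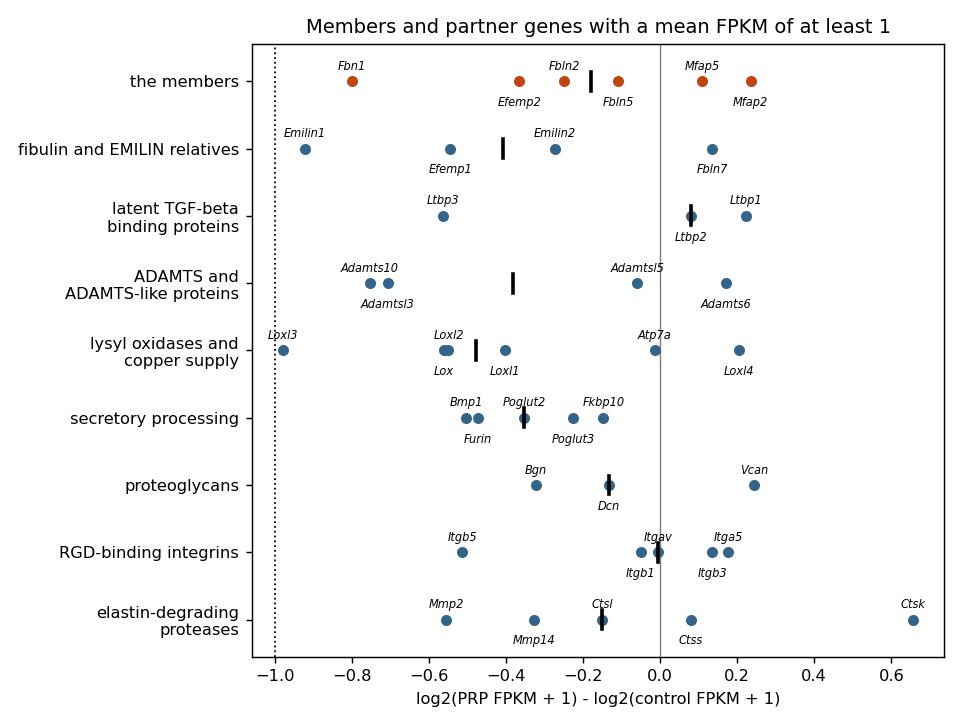
Log2(FPKM + 1) difference, PRP minus control, of the 6 members and the 35 partner genes averaging 1 FPKM or more, each point 1 gene and each black bar the median of its row, with a dotted line at 2-fold lower. Loxl3 at -0.98 lies nearest that line, Ctsk at 0.66 lies farthest to the right, and all 5 secretory processing genes lie to the left of 0.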

How the data were processed

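RNA-seq was compared between 1 PRP and 1 control library of mouse FAPs. Per the labels and the study's methods, reads were trimmed (fastp 0.23.4), aligned to mm10 (STAR 2.5.3a) and counted per gene (featureCounts). The authors deposited FPKM values, and the step from counts to FPKM, the annotation release and the strand setting are not given in the sources used here.

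Exon lengths came from GENCODE M21 (GRCm38), which held 41492 of the 44291 genes. Of the genes with such a length that were above 0 in either library, 93.8% had FPKM that corresponded to whole read numbers in both (tolerance 0.001 reads). The members were among them. Even numbers were in excess, the pattern left by counting both mates of a pair, so intervals used read numbers divided by 2. They are exact Clopper-Pearson 95% intervals of the PRP share, turned into the ratio of FPKM, and exact Poisson intervals of a level. They cover counting error only and take no account of PCR duplicates. Log2 differences (PRP minus control) were taken after adding 1 to each FPKM value, and called only for genes that averaged 1 FPKM or more. No test was made, since each group has 1 library. In the partner lists, genes past 2-fold were to be named, and otherwise the most abundant gene and those with the lowest and the highest difference. The members and lists were chosen with earlier results of these data known. Alternatives were other pseudocounts, filters, scalings and fold thresholds, the mean of the members and undivided read numbers. The procedures were tested on simulated data. Python 3.11.15, NumPy 2.4.6, pandas 2.3.3, SciPy 1.17.1 and matplotlib 3.10.9 were used.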

Additional observations from a re-analysis of the deposited data

How the results depend on the processing

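Of the 6 members past the filter none passed 2-fold under another pseudocount or scaling, and Fbn1 alone passed at 1.5-fold (1 member, 0 at 4-fold). Without a filter 8 of the 10 members were lower with a median of -0.27, and under the stricter filter of 5 FPKM, where 4 members were left, 1 was higher and the median was -0.31. Every member kept its direction under each setting that gave a value. The log2 difference of Fbn2, which was under the filter, ranged from -1.25 with a pseudocount of 0.1 to -0.17 with 5 and that of Fbn1 from -0.84 to -0.77. With undivided read numbers the intervals of Mfap4 (0.235 to 0.839) and Fbln5 (0.825 to 0.998) lay below 1 and that of Mfap5 (1.01 to 1.17) above it. The number of all genes past 2-fold was 739 with a pseudocount of 0.1, 113 with 5 and 210 under the stricter filter. It was 596 with the values rescaled to the same sum. A second rescaling, which left out mitochondrial genes and the 50 most abundant genes, gave 642. Both rescalings raised the values of both libraries before 1 was added, which acts as a smaller pseudocount does. The median log2 difference of all genes moved only from 0.007 to -0.007 and -0.023. These 2 numbers therefore do not show the effect of scaling between the libraries alone. After the second rescaling Fbn2 differed by -1.07, so that it passed 2-fold there and with a pseudocount of 0.1. Both settings lessen the weight of the pseudocount at its low level. With differences centred on the median gene instead, Fbn2 differed by -0.58. The number of all genes was 1436 at 1.5-fold and 26 at 4-fold. Of the partner genes, 2 passed 2-fold with a pseudocount of 0.1 and after the second rescaling (Loxl3 and Adamtsl3, the latter named after its values were seen) and 1 after the first (Loxl3), and 5 passed at 1.5-fold (these 2, Adamts10, Emilin1 and Ctsk). Partner genes that were higher numbered 18 without a filter and 2 under the stricter one. The median of the proteases turned to 0.020 without a filter, and that of the latent TGF-β binding proteins to -0.56 under the stricter filter, where Ltbp3 alone was left. No paired analysis was possible because no group holds more than 1 library. The share of higher genes among those past 2-fold was 70.7%, with 61.1% after the second rescaling and 63.7% with a pseudocount of 0.1. The depth limits Mfap2, Mfap4, Fbln1 and Eln most, with 17 to 190 reads per library.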
